A study of Mus musculus with 45 samples.

Results

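The 10 genes described here load and display peptides on major histocompatibility complex (MHC) molecules: *H2-K1*, *H2-D1*, *B2m*, *H2-Aa*, *H2-Ab1*, *H2-Eb1*, *Cd74*, *Ciita*, *Tap1* and *Psmb8*. They were listed by name, by a rule that uses no measured value but was written with earlier results of these data known, and are 10 of the 55401 genes of the count tables. All 10 were among the 15991 protein-coding genes tested in males and the 15968 tested in females.

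Class I molecules stand on almost every nucleated cell and show peptides from inside the cell to CD8+ T cells. The proteasome cuts the peptides, the TAP transporter carries them into the endoplasmic reticulum, and a heavy chain (H2-K1 or H2-D1) binds them together with the light chain B2m. Class II molecules pair an alpha and a beta chain, assemble on the invariant chain Cd74 and show peptides from endosomes to CD4+ T cells. They are made mainly by macrophages, dendritic cells and B cells under the transactivator Ciita. Interferon gamma can raise both classes, also in tubule epithelium.

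The libraries came from a pulldown aimed at mRNA bound to ribosomes of nephron epithelium, through an EGFP tag on the ribosomal protein L10a (TRAP). Genes of fibroblasts, endothelium and macrophages were also read in all 45 libraries, so a transcript measured here need not come from tubule cells. All 45 mice were hemizygous for *R26Rpl10a*, *Pax8rtTA* and *TetOCre*, so that doxycycline, given from postnatal day 28 to day 42, switched on Cre in Pax8-expressing tubule cells. Kidneys were taken at 7 weeks of age. Noncystic mice (8 males, 7 females) were *Pkd1* fl/+, Pkd1KO mice (7 males, 8 females) were *Pkd1* fl/fl, and Pkd1KO+ciliaKO mice (9 males, 6 females) were *Pkd1* fl/fl and *Kif3a* fl/fl. *Pkd1* encodes polycystin-1 and *Kif3a* a motor subunit that cilia need. The comparisons ask what follows loss of *Pkd1*, and which part of it differs when cilia are lost too.

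Gene counts summed to 80874556 in the shallowest library and 132958186 in the deepest. *Kif3a* was 4.33 to 6.68 TPM (transcript abundance corrected for length and for the library total) in Pkd1KO+ciliaKO males and at least 11.5 in the other males. In females, the library labelled noncystic replicate 5 had 6.21 TPM where the others of its group had 20.8 or more, and the library labelled Pkd1KO+ciliaKO replicate 6 had 20.1 TPM where the others had 9.02 or less. Both go against their labels. On the first principal component of log2(TPM + 1) 4 males (noncystic replicate 3, Pkd1KO replicate 4, Pkd1KO+ciliaKO replicates 6 and 8) lay at -30.2 to -1.13, apart from the 20 other males (14.4 to 40.3). The 21 females lay at -38.4 to -12.9. Some calls are given with and without these 6 libraries. Where no refit is given, the call is from all labelled mice of its groups.

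By median TPM over the 45 mice, a scale per transcript length, the order of levels was *B2m* (468), *H2-D1* (137), *H2-K1* (100.4), *Cd74* (95.0), *H2-Eb1* (34.7), *H2-Ab1* (25.0), *H2-Aa* (15.2), *Psmb8* (5.52), *Tap1* (3.99) and *Ciita* (2.08). The TPM values of males and females come from separate tables. Each gene lay above the next in at least 42 of 45 mice, except that *H2-K1* lay above *Cd74* in 24, so that these neighbours do not differ beyond their spread. The class I chains and *Cd74* thus stood highest, and the proteasome subunit, the transporter and the transactivator lowest.

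On GRCm38 the MHC members lie on chromosome 17, with *H2-K1* at chr17:33996017-34000347, *Tap1* at chr17:34187553-34197225, *Psmb8* at chr17:34197721-34201454, *H2-Ab1* at chr17:34257689-34269419, *H2-Aa* at chr17:34282744-34287823, *H2-Eb1* at chr17:34305867-34316674 and *H2-D1* at chr17:35262730-35267499. *B2m* lies at chr2:122147686-122153083 and *Ciita* at chr16:10480059-10528418. *B2m* overlaps *Patl2*, *Ciita* overlaps *Dexi*, *Tap1* overlaps *Psmb9*, and *H2-Eb1*, *Psmb8* and *Cd74* overlap *Gm20513*, *Gm20496* and *Mir5107*; the strand setting of the counting was not given in the sources used here, so reads in shared stretches may be assigned to either gene. The class I heavy chains are close paralogs, and their separate values are uncertain to that degree.

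Promoters of 7 of the 10 members were found in the RefSeq table for GRCm38.p6; *H2-Ab1*, *Cd74* and *Ciita* had no entry. The 150 bases before the start are shown for a class I heavy chain, the light chain, and an alpha and a beta chain of class II, because the class I and class II genes varied differently among mice. Capitals mark the CCAAT box, the letters TGACG found in cyclic AMP response elements, and GAAA repeated after any 2 bases, the core of an interferon response element. Each was searched on either strand.
H2-K1, chr17:34000348-34000497, minus strand: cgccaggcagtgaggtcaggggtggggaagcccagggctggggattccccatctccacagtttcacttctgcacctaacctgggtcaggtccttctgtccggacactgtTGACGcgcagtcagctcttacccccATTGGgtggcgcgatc
B2m, chr2:122147537-122147686, plus strand: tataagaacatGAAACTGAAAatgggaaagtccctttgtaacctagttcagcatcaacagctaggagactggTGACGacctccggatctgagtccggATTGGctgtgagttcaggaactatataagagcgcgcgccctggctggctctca
H2-Aa, chr17:34287824-34287973, minus strand: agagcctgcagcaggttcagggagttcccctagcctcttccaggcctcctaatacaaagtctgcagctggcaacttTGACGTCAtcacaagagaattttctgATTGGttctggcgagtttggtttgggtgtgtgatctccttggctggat
H2-Eb1, chr17:34305717-34305866, plus strand: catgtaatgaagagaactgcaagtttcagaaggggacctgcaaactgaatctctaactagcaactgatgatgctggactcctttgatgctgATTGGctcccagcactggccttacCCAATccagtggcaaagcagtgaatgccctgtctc
Over the 250 bases before the start, CCAAT was present in 6 of the 7 members, TGACG in 5 and the repeated GAAA in 1, *B2m*. Of all 32851 promoter windows of that length, 33.8%, 17.8% and 2.98% held them. These are letter matches, not binding sites. A form of an element with other letters would be missed, so a promoter without a match may still hold one. For *H2-D1*, *Tap1* and *Psmb8* all 150 bases before the start used lie in annotated exons. A further start of *H2-K1* is not shown.

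**Figure D1:**
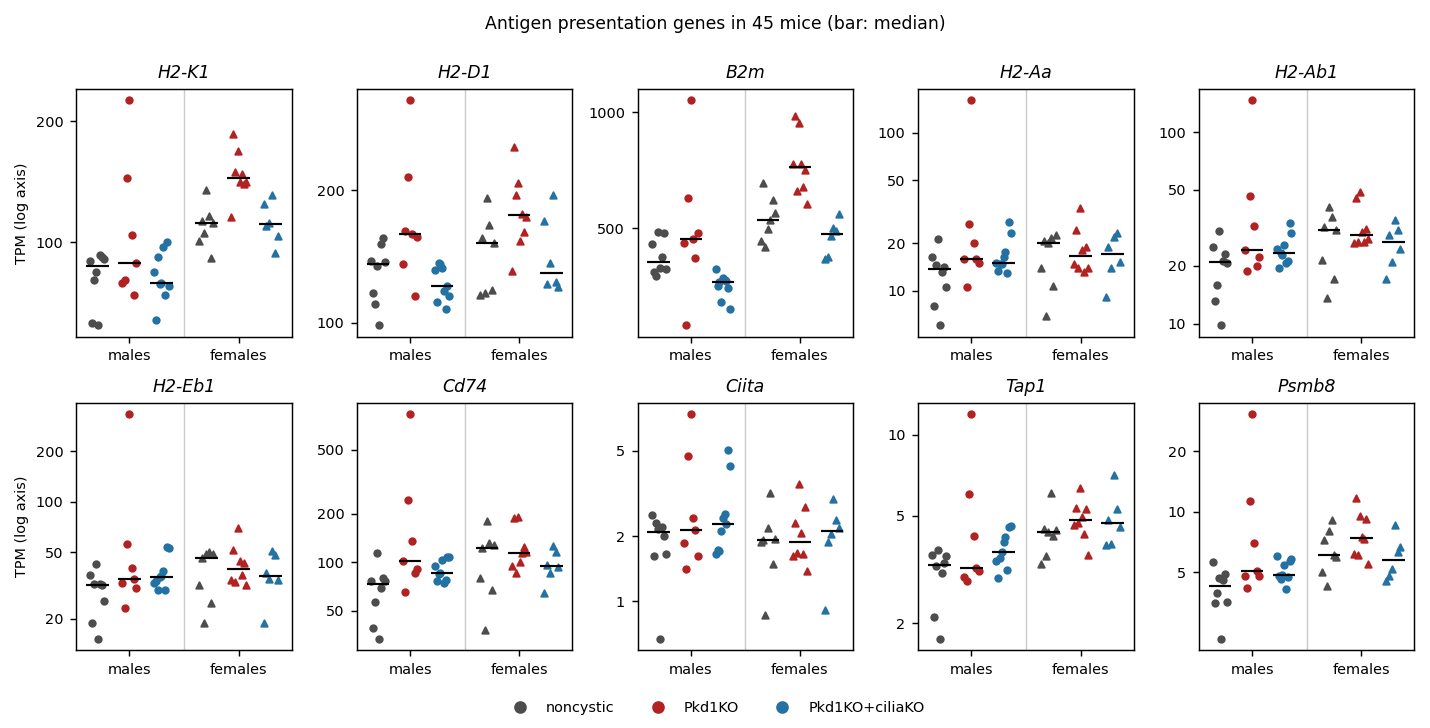
TPM on a log axis for the 10 members, 1 point per mouse (circles males, triangles females), coloured by genotype, with the group median as a bar. Pkd1KO male replicate 4 stands above every other mouse in all 10 panels, and in females the *B2m* points of Pkd1KO lie above all those of Pkd1KO+ciliaKO.

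In females, the class I light chain *B2m* and the heavy chain *H2-K1* were higher in Pkd1KO than in both other genotypes. *B2m* was 577 to 978 (median 719.8) TPM in the 8 Pkd1KO females, 447 to 655 (median 524) in the 7 noncystic females and 416 to 543 (median 485) in the 6 Pkd1KO+ciliaKO females. Every Pkd1KO female lay above every Pkd1KO+ciliaKO female, and 5 of 8 lay above every noncystic female. The log2 fold change of *B2m* was 0.74 ± 0.11 (SE) against Pkd1KO+ciliaKO (adjusted p = 0.000914, quasi-likelihood test of edgeR, Benjamini-Hochberg adjusted, as for every adjusted p of a fold change here) and 0.45 ± 0.11 (adjusted p = 0.0318) against noncystic. Without the 2 female libraries that go against their labels these were 0.79 (adjusted p = 0.000877) and 0.44 (adjusted p = 0.0516), the second no longer past the threshold of 0.05.

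*H2-K1* was 116 to 185 (median 144) TPM in Pkd1KO, 91.4 to 135 (median 112) in noncystic and 94.3 to 131 (median 111) in Pkd1KO+ciliaKO females. All Pkd1KO females except replicate 1 lay above every female of the other genotypes. The log2 fold change was 0.50 ± 0.11 (adjusted p = 0.00783) against Pkd1KO+ciliaKO and 0.40 ± 0.10 (adjusted p = 0.0336) against noncystic, and 0.48 (adjusted p = 0.0167) and 0.41 (adjusted p = 0.0470) without the 2 libraries. *H2-D1*, the other classical heavy chain, was 131 to 249.8 TPM in Pkd1KO, 116 to 191 in noncystic and 120.4 to 195 in Pkd1KO+ciliaKO females, ranges that overlapped. Its log2 fold changes, 0.42 ± 0.15 (adjusted p = 0.0766) and 0.30 ± 0.14 (adjusted p = 0.307), did not pass.

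Thus 2 of 10 members were called higher in Pkd1KO than in noncystic females, where 3.34% of genes were called, 2.02% higher and 1.32% lower, and 2 of 10 higher than in Pkd1KO+ciliaKO, where 11.7% of genes were called, 7.05% higher and 4.65% lower. The calls against noncystic were lost in many fits that left out 1 mouse: *B2m* was called in 7 of 15 and *H2-K1* in 6 of 15. Against Pkd1KO+ciliaKO both were called in 14 of 14 such fits. Between Pkd1KO+ciliaKO and noncystic females 2.54% of genes were called, 0.67% higher and 1.87% lower, and 0 members were called by edgeR or by DESeq2. Only *B2m* had an unadjusted p below 0.05 (log2 fold change -0.29 ± 0.09, adjusted p = 0.0892). In these bulk samples fewer cells of a type and less RNA per cell cannot be told apart.

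In males, *B2m* and *H2-D1* were higher in Pkd1KO than in Pkd1KO+ciliaKO. *B2m* was 280.4 to 1072 (median 468) TPM in the 7 Pkd1KO males, 376 to 488 (median 408) in the 8 noncystic males and 308 to 392 (median 363) in the 9 Pkd1KO+ciliaKO males. All Pkd1KO males but 1 lay above every Pkd1KO+ciliaKO male, and that 1, replicate 2, lay below all of them. The log2 fold change was 0.68 ± 0.16 (adjusted p = 0.0204), called in 16 of 16 fits without 1 mouse, and 0.43 (adjusted p = 0.0252) without the libraries that stand apart. *B2m* was also lower in Pkd1KO+ciliaKO than in noncystic males, with a log2 fold change of -0.35 ± 0.09 (adjusted p = 0.0208); 8 of 9 lay below the lowest noncystic male. That call was made in 17 of 17 fits without 1 mouse. Against noncystic males, Pkd1KO males differed in *B2m* by 0.33 ± 0.17 (adjusted p = 0.265).

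*H2-D1* was 115 to 319 (median 159) TPM in Pkd1KO, 98.7 to 156 (median 136) in noncystic and 107 to 137 (median 121) in Pkd1KO+ciliaKO males, and 5 of 7 Pkd1KO males lay above all of the last. The log2 fold change of 0.64 ± 0.15 (adjusted p = 0.0270) fell to 0.43 (adjusted p = 0.0850) without the libraries that stand apart. *H2-K1* was 73.8 to 225 (median 88.8), 62.2 to 92.9 (median 87.1) and 64.2 to 100.4 (median 79.2) TPM in the same groups, with a log2 fold change of 0.55 ± 0.16 (adjusted p = 0.0725) between Pkd1KO and Pkd1KO+ciliaKO. Thus 2 of 10 members were called higher in Pkd1KO than in Pkd1KO+ciliaKO males, where 3.77% of genes were called, 1.99% higher and 1.78% lower. Likewise 1 of 10 was called lower in Pkd1KO+ciliaKO than in noncystic males, where 8.89% of genes were called, 5.63% higher and 3.26% lower.

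**Figure D2:**
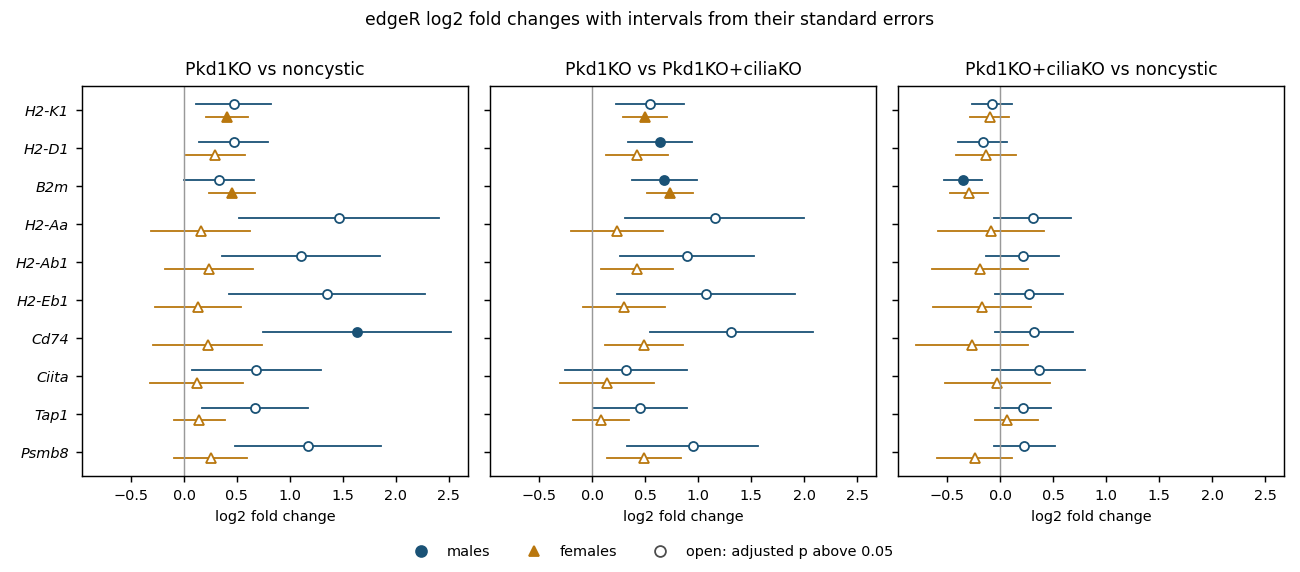
Fitted log2 fold changes of the 10 members in the 3 genotype comparisons, circles for males and triangles for females, with bars of 1.96 standard errors to each side; filled symbols had an adjusted p of at most 0.05. *B2m*, *H2-K1*, *H2-D1* and *Cd74* have filled symbols, and the widest bars belong to class II genes in males.

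The class II chains and *Cd74* had large log2 fold changes between Pkd1KO and noncystic males, and these depended on 2 mice. *Cd74*, the invariant chain, was 65.7 to 832 (median 103) TPM in Pkd1KO, 33.5 to 114 (median 73.3) in noncystic and 74.9 to 109 (median 86.5) in Pkd1KO+ciliaKO males. Pkd1KO replicate 4 stood at 832 TPM and replicate 3 at 243, above the 33.5 to 136 of the other 22 males. The log2 fold change against noncystic was 1.63 ± 0.45 (adjusted p = 0.0415), the 1 call among the 10 members, where 6.3% of genes were called, 4.05% higher and 2.25% lower. It was 0.81 (adjusted p = 0.121) without the libraries that stand apart, 0.58 (adjusted p = 0.245) without Pkd1KO replicates 3 and 4, a pair left out after their values were seen, and was called in 6 of 15 fits without 1 mouse.

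*H2-Aa*, the alpha chain of I-A, was 161 TPM in Pkd1KO male replicate 4, 26.4 in replicate 3 and 6.06 to 27.4 in the other 22 males. Its partner *H2-Ab1* was 147, 46.3 and 9.79 to 33.6 TPM in that order, and *H2-Eb1*, the beta chain of I-E, 334, 55.6 and 15.1 to 53.7 TPM. Replicate 4 was the highest of the 45 mice for each of the 10 members. The log2 fold changes against noncystic males, 1.46 ± 0.48 (adjusted p = 0.0839) for *H2-Aa*, 1.10 ± 0.38 (adjusted p = 0.0951) for *H2-Ab1* and 1.35 ± 0.47 (adjusted p = 0.102) for *H2-Eb1*, did not pass. Without replicates 3 and 4 they were 0.34, 0.33 and 0.23.

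Markers of other cell types moved with replicate 4. Its summed level of the 8 macrophage genes was 552 TPM, with 101 in replicate 3 and 50.6 to 94.2 in the other 22 males. In the same order, the 4 leukocyte genes summed to 189, 22.2 and 4.58 to 25.5 TPM, the 4 T cell genes to 9.14, 1.31 and 0.670 to 1.99, and the 5 dendritic cell genes to 18.6, 6.17 and 2.84 to 13.4. The macrophage sum is weighted to *Csf1r*, whose median count was 6734 where that of *C1qa* was 354. *C1qa* was 170.1 TPM in replicate 4 and 14.8 in replicate 3, which lay within the 3.22 to 17.7 of the other 22 males. Of the 8 macrophage genes 1, *Csf1r*, was called higher in Pkd1KO than in noncystic males, where 4.05% of all genes were. All 8 had positive log2 fold changes (median 1.64) and an unadjusted p below 0.05. *Csf1r* was also the 1 call against Pkd1KO+ciliaKO males, where 1.99% of all genes were called higher and the median of the 8 was 1.08. These fits include replicate 4. Lists of cells that are not immune were also above the other 22 males in replicate 4: endothelium at 181 TPM (23.9 to 127), fibroblast at 367 (69.8 to 290.3) and podocyte at 75.9 (15.8 to 67.1). The B cell list was highest there too, at 3.46 (0.680 to 2.64), and the mast cell list was not, at 8.98 (5.26 to 12.9). The 5 proximal tubule genes summed to 1518, 2364 and 1985 to 3442 TPM, and the 4 tubule injury genes to 150.4, 185 and 12.5 to 98.2. The defining B cell gene *Ms4a1* had 0 counts in 15 of the 45 mice. The part of all these cells in the class II values was not tested.

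In females the class II genes lay in overlapping ranges. *Cd74* was 86.0 to 192 (median 115) TPM in Pkd1KO, 38.1 to 182 (median 123) in noncystic and 64.4 to 127 (median 95.2) in Pkd1KO+ciliaKO females. Its log2 fold change was 0.23 ± 0.26 (adjusted p = 0.763) against noncystic and 0.49 ± 0.19 (adjusted p = 0.105) against Pkd1KO+ciliaKO. For *H2-Ab1*, the closest of the 3 chains to the threshold, these were 0.24 ± 0.21 (adjusted p = 0.661) and 0.42 ± 0.17 (adjusted p = 0.123). Of the 8 macrophage genes 1, *Csf1r*, was called higher in Pkd1KO than in Pkd1KO+ciliaKO females, where 7.05% of all genes were. Only 3 of the 8 had positive log2 fold changes there, and their median was -0.11. Between Pkd1KO and noncystic females 0 were called by edgeR or DESeq2, with 1 at an unadjusted p below 0.05. The macrophage sum, weighted to *Csf1r*, was 56.6 to 116 TPM in Pkd1KO, 49.6 to 86.2 in noncystic and 36.8 to 85.6 in Pkd1KO+ciliaKO females.

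*Ciita*, the transactivator of class II genes, passed in no genotype comparison. It was 1.41 to 7.38 (median 2.14) TPM in Pkd1KO males and 0.667 to 2.52 (median 2.09) in noncystic males, a log2 fold change of 0.68 ± 0.31 (adjusted p = 0.208). *Nlrc5*, which activates class I genes, had 0.93 ± 0.35 (adjusted p = 0.125) in the same comparison and was 8.62 TPM in Pkd1KO male replicate 4, against 0.665 to 3.78 in the 22 other males. Of the 9 transactivators and partners, the CCAAT-binding subunit *Nfyc* was lower in Pkd1KO than in noncystic males (log2 fold change -0.17 ± 0.05, adjusted p = 0.0371), and *Nfyb*, another subunit, was higher in Pkd1KO than in Pkd1KO+ciliaKO females (0.31 ± 0.07, adjusted p = 0.0125).

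*Tap1*, a chain of the peptide transporter, was 2.87 to 11.9 (median 3.21) TPM in Pkd1KO, 1.74 to 3.74 (median 3.30) in noncystic and 2.93 to 4.60 (median 3.66) in Pkd1KO+ciliaKO males, with no genotype call; Pkd1KO against noncystic males gave a log2 fold change of 0.67 ± 0.26 (adjusted p = 0.135). *Psmb8*, the immunoproteasome subunit that takes the place of *Psmb5*, was 4.17 to 30.5 (median 5.10), 2.33 to 5.64 (median 4.26) and 4.15 to 6.05 (median 4.87) TPM in the same groups. Replicates 4 and 3 were again the highest Pkd1KO males, and the log2 fold change against noncystic, 1.17 ± 0.35 (adjusted p = 0.0568), did not pass. Of the 13 genes of class I loading and the immunoproteasome, edgeR called 0 in each of the 6 genotype comparisons, with 0 to 5 genes at an unadjusted p below 0.05 and 0 to 2 calls by DESeq2.

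Of the 3 constitutive counterparts of immunoproteasome subunits, *Psmb5* was the one called between genotypes. It was 109 to 240.4 (median 166) TPM in Pkd1KO, 175 to 242 (median 197) in noncystic and 102 to 129 (median 114) in Pkd1KO+ciliaKO males. All 9 Pkd1KO+ciliaKO males lay below every noncystic male, with a log2 fold change of -0.87 ± 0.10 (adjusted p = 2.95e-05), and Pkd1KO lay above Pkd1KO+ciliaKO by 0.69 ± 0.15 (adjusted p = 0.0148). In females it was 141 to 223 (median 186), 123 to 184 (median 156) and 99.0 to 179 (median 109.7) TPM, the highest Pkd1KO+ciliaKO female being the library that goes against its label. Pkd1KO lay above Pkd1KO+ciliaKO females by 0.71 ± 0.15 (adjusted p = 0.00759). The median of *Psmb8* as a percentage of *Psmb5*, by TPM, was 2.05%, 3.82% and 4.26% in noncystic, Pkd1KO and Pkd1KO+ciliaKO males and 3.82%, 4.03% and 4.65% in females.

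**Figure D3:**
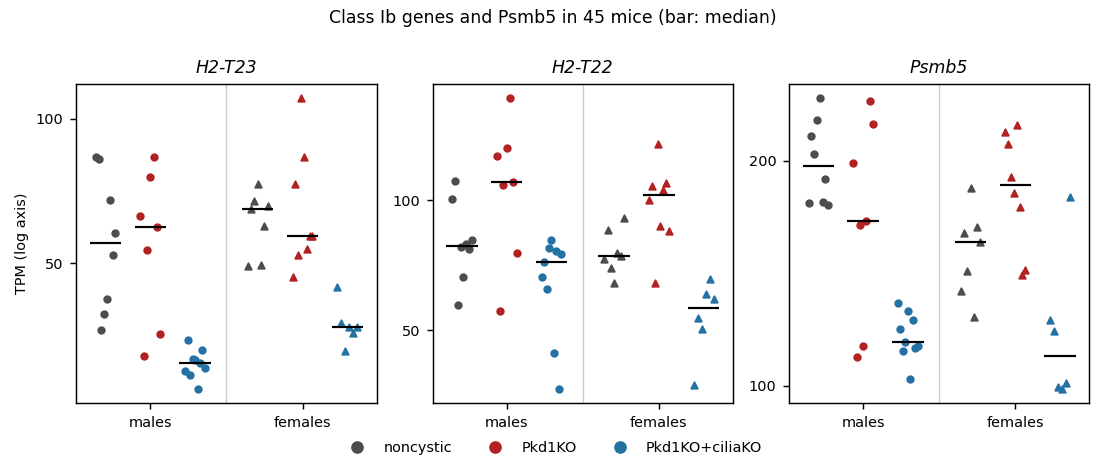
TPM on a log axis for *H2-T23*, *H2-T22* and *Psmb5*, 1 point per mouse (circles males, triangles females), with the group median as a bar. In the *H2-T23* panel all 9 male and all 6 female mice labelled Pkd1KO+ciliaKO lie below every mouse of their sex labelled noncystic.

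Class I genes of the Q, T and M regions were measured beside the members. Of 13 tested in males, 4 were called higher in Pkd1KO than in Pkd1KO+ciliaKO (*H2-Q6*, *H2-Q7*, *H2-T22* and *H2-T23*), where 1.99% of all genes were. Of 12 in females those 4 and *H2-M2*, with a median of 11 counts per mouse, were called higher, where 7.05% of all genes were. As close paralogs, these genes do not give fully separate results. The median log2 fold change of the list was 0.75 in males and 0.46 in females, against 0.01 and -0.01 over all genes tested. *H2-T23* encodes Qa-1, a ligand of inhibitory receptors of natural killer cells. It was 27.3 to 34.5 (median 31.0) TPM in Pkd1KO+ciliaKO, 32.0 to 83.3 (median 59.4) in Pkd1KO and 36.3 to 83.4 (median 55.0) in noncystic males. In females it was 32.8 to 44.6, 46.7 to 110.4 and 49.3 to 73.1 TPM in that order. Grouped by label, Pkd1KO+ciliaKO mice were lowest in both sexes and did not overlap noncystic mice. In females each of these groups holds a library whose *Kif3a* goes against its label, so the gap there depends on the labels.

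The log2 fold change of *H2-T23* in Pkd1KO against Pkd1KO+ciliaKO was 0.99 ± 0.15 (adjusted p = 0.000820) in males and 0.92 ± 0.17 (adjusted p = 0.00358) in females. In Pkd1KO+ciliaKO against noncystic the level was 0.499 times that of noncystic mice in males (adjusted p = 0.00147) and the log2 fold change -0.84 ± 0.12 (adjusted p = 0.00894) in females. Pkd1KO and noncystic mice differed in *H2-T23* by -0.01 ± 0.23 (adjusted p = 0.986) in males and 0.09 ± 0.16 (adjusted p = 0.863) in females, neither past the threshold. The 4 calls against Pkd1KO+ciliaKO mice were made in every fit without 1 mouse and without the libraries that stand apart. *H2-T22*, bound by some gamma delta T cells, had log2 fold changes of 0.84 ± 0.22 (adjusted p = 0.0402) in males and 0.97 ± 0.14 (adjusted p = 0.000867) in females in Pkd1KO against Pkd1KO+ciliaKO; the male call was made in 5 of 16 fits without 1 mouse and not without the libraries that stand apart, where it was 0.64 (adjusted p = 0.0543). *H2-Q6* and *H2-Q7*, which encode Qa-2 chains, had 0.94 ± 0.21 (adjusted p = 0.0198) and 0.97 ± 0.26 (adjusted p = 0.0440) in males and 0.67 ± 0.17 (adjusted p = 0.0183) and 0.92 ± 0.21 (adjusted p = 0.0124) in females. Without the libraries that stand apart *H2-Q7* in males was 0.60 (adjusted p = 0.0705). *H2-T22* was also called lower in Pkd1KO+ciliaKO than in noncystic females, and *H2-M10.5* lower in Pkd1KO+ciliaKO than in noncystic males.

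Of the 9 class II processing genes tested, 2 were called higher in Pkd1KO than in noncystic males, where 4.05% of all genes were. They were *Cd74* and *H2-DMb2*, a chain of the peptide editor H2-DM (log2 fold change 1.46 ± 0.40, adjusted p = 0.0406). *H2-DMb2* was also higher in Pkd1KO than in Pkd1KO+ciliaKO males (1.17 ± 0.31, adjusted p = 0.0429); without the libraries that stand apart the values were 1.14 (adjusted p = 0.0678) and 0.88 (adjusted p = 0.165). In females *H2-DMb1* was higher in Pkd1KO than in Pkd1KO+ciliaKO (0.52 ± 0.14, adjusted p = 0.0224).

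Of 9 genes of interferon gamma signalling, *Irf8*, a factor of myeloid cells, was higher in Pkd1KO than in noncystic males (log2 fold change 0.68 ± 0.17, adjusted p = 0.0219), where DESeq2 called 4 of the 9 and 5 had an unadjusted p below 0.05. In Pkd1KO+ciliaKO against noncystic males *Jak2*, a cytoplasmic kinase of the pathway, was lower (-0.22 ± 0.05, adjusted p = 0.0159). There DESeq2 called 2 of the 9, with 5 at an unadjusted p below 0.05. In Pkd1KO against Pkd1KO+ciliaKO males 0 were called by edgeR or DESeq2, with 3 genes at an unadjusted p below 0.05. In females 0 were called by either tool in each of the 3 genotype comparisons, with 1 gene at an unadjusted p below 0.05 in each. Of 35 tests of the 5 costimulatory genes, edgeR called 0, with 9 at an unadjusted p below 0.05 and 4 calls by DESeq2.

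All 10 members had positive log2 fold changes in Pkd1KO against noncystic and against Pkd1KO+ciliaKO in both sexes. The medians were 0.89 and 0.79 in males and 0.23 and 0.42 in females, where those of all genes tested were -0.01, 0.01, 0.00 and -0.01. Both comparisons share the Pkd1KO mice. The members vary together among mice, so their 10 signs are not separate results. The male medians include Pkd1KO replicate 4, the highest of the 45 mice for each of the 10 members. Without Pkd1KO male replicates 3 and 4, *H2-Eb1* was -0.05 against Pkd1KO+ciliaKO males.

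Whether the genotype differences themselves differed between the sexes was tested as an interaction over all 45 mice. For each of the 3 differences 0 members were called by edgeR or DESeq2, where 0.0126%, 0.221% and 0.0316% of genes were called for Pkd1KO against noncystic, Pkd1KO against Pkd1KO+ciliaKO and Pkd1KO+ciliaKO against noncystic. At an unadjusted p below 0.05 there were 5, 0 and 0 members. The smallest adjusted p was that of *Cd74* in Pkd1KO against noncystic, with a difference of 1.40 ± 0.47 (adjusted p = 0.307) on the log2 scale, more in males. Between noncystic males and females, where 27.6% of genes were called, 15.4% higher and 12.2% lower, 1 of 10 members was called: *Psmb8* was lower in males, with a log2 fold change of -0.50 ± 0.18 (adjusted p = 0.0477), and -0.38 (adjusted p = 0.127) without the libraries that stand apart. *Psmb5* was higher in males (0.55 ± 0.10, adjusted p = 0.000820), and the proteasome activator genes *Psme1* (-0.22 ± 0.05, adjusted p = 0.00204) and *Psme2* (-0.15 ± 0.05, adjusted p = 0.0371) and the immunoproteasome subunit *Psmb10* (-0.37 ± 0.09, adjusted p = 0.00454) were lower.

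Within groups, mice high in one class II gene were high in the others. As deviations from the group mean of log2(CPM + 0.1), the 6 pairs among *H2-Aa*, *H2-Ab1*, *H2-Eb1* and *Cd74* had Pearson r of 0.92 to 0.99 over 45 mice, and 0.90 to 0.98 over the 43 without Pkd1KO male replicates 3 and 4. The 3 class I pairs had 0.56 to 0.87, and 0.40 to 0.86 over the 43. The 12 pairs of a class I with a class II gene had 0.49 to 0.77, and 0.36 to 0.65 over the 43. These values are a description, and both genes of a pair share library and depth.

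**Figure D4:**
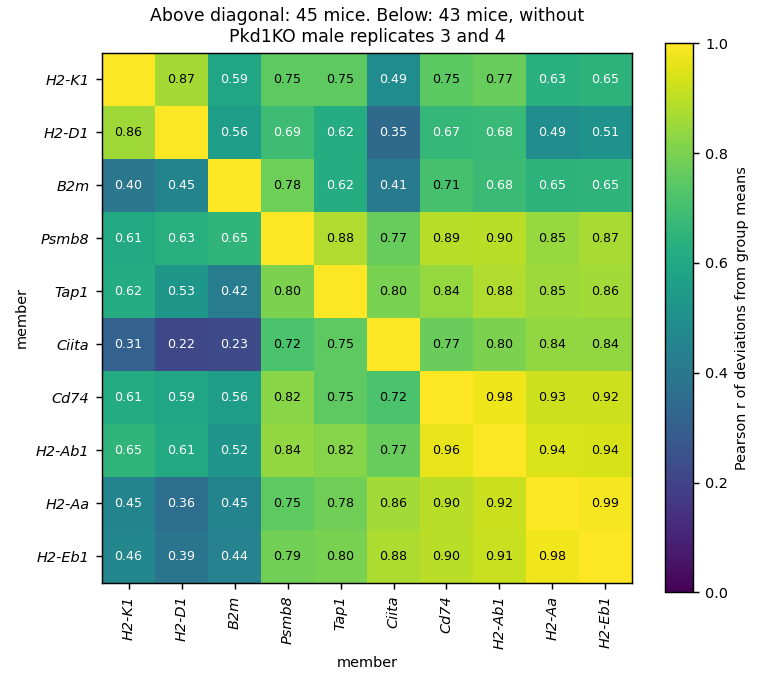
Pearson r between members of deviations from group means of log2(CPM + 0.1), above the diagonal over 45 mice and below it over the 43 without Pkd1KO male replicates 3 and 4. Pairs of class II genes have 0.92 to 0.99 above the diagonal, and class I with class II pairs are lower.

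The members were set against 5 marker genes in the same way, which gave 50 relations, each with a two-sided permutation test of 100000 resamples within groups and Benjamini-Hochberg adjustment over the 50. *C1qa*, a complement gene of macrophages, passed with all 10 members by both measures, at r of 0.51 to 0.95. For *H2-Aa* it was r = 0.95 and rho = 0.92, and for *Cd74* r = 0.84 and rho = 0.77 (permutation p = 1e-05 for each, the smallest these resamples can give; adjusted p = 3.57e-05 for r and 3.33e-05 for rho). For *B2m* it was r = 0.63 and rho = 0.42 (permutation p = 0.0038 and 0.0057, adjusted p = 0.00792 and 0.0136). Without the 2 mice farthest from the median of *C1qa*, Pkd1KO male replicate 4 and noncystic male replicate 5, r was 0.90 for *H2-Aa*, 0.72 for *Cd74* and 0.40 for *B2m*. In males alone r was 0.97, 0.89 and 0.67, and in females alone 0.90, 0.71 and 0.51.

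**Figure D5:**
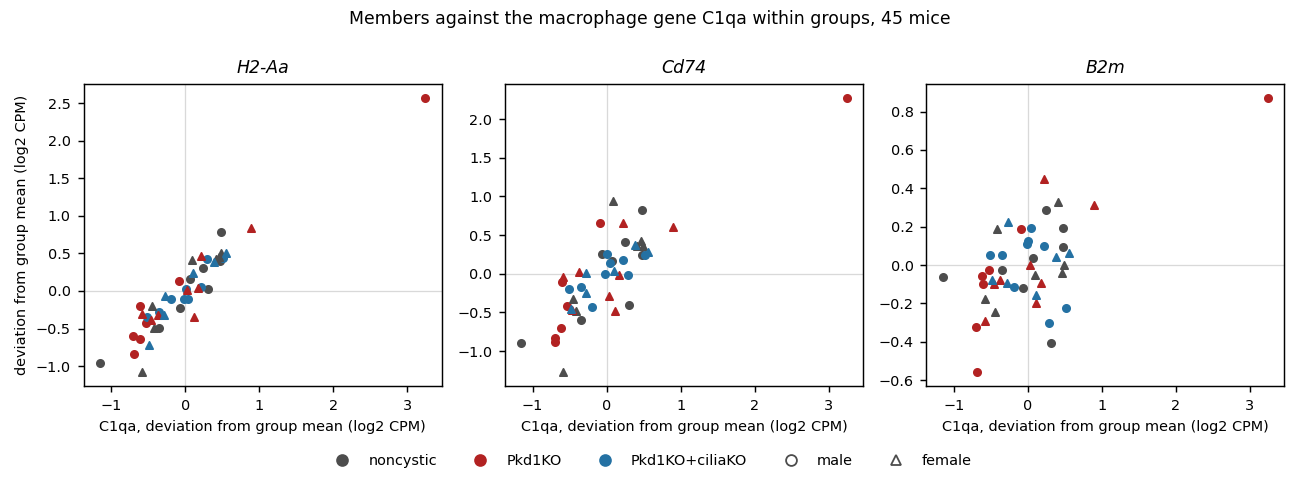
Deviation from the group mean of log2(CPM + 0.1) for *H2-Aa*, *Cd74* and *B2m* against that of *C1qa*, 1 point per mouse (circles males, triangles females). The point at the far upper right of each panel is Pkd1KO male replicate 4, and the *B2m* points scatter more widely around a line than those of *H2-Aa*.

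*Pecam1*, an endothelial gene, passed with 6 members by both measures, the 4 class II genes, *Ciita* and *Tap1*, from r = 0.57 and rho = 0.38 for *Cd74* to r = 0.78 and rho = 0.66 for *H2-Aa*, and without its 2 farthest mice r was 0.36 and 0.63. *Havcr1*, a gene of injured tubules, passed with 0 members (r of 0.02 to 0.35). Its r was 0.29 to 0.57 in males alone and -0.34 to 0.03 in females alone. The B cell gene *Cd79a*, with a median of 7 counts per mouse, passed with 3 by r and 0 by rho. For *Cd79a* r was 0.24 to 0.68 in males alone and -0.41 to -0.13 in females alone. By highest r over 15828 genes, *Cd74* was most like *H2-Ab1* (0.98), *H2-DMa* (0.93), *H2-Aa* (0.93), *H2-K1* most like *H2-D1* (0.87), *H2-Q4* (0.79), *H2-DMa* (0.77), and *Psmb8* most like *Psmb9* (0.93), *Bst2* (0.91), *H2-Ab1* (0.90).

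The MHC shares chromosome 17 with the floxed *Pkd1* allele, at chr17:24549834-24596508; *H2-K1* lies 9.4 Mb away and *H2-D1* 10.67 Mb. In Pkd1KO against noncystic, 5 of 100 other genes between *H2-K1* and *H2-M2* were called in males and 0 of 100 in females, beside 6.3% and 3.28% on the other chromosomes. Within 5 Mb of *Pkd1* the shares were 11.1% and 9.05%. In Pkd1KO against Pkd1KO+ciliaKO, where both groups carry 2 floxed *Pkd1* alleles, 5 and 8 of 100 were called, beside 3.75% and 11.7%. With the H2- genes and members of that stretch included, 11 of 126 were called in males (8.73%) and 15 of 125 in females (12%). In Pkd1KO against noncystic these counts were 7 of 126 and 1 of 125. For Pkd1KO+ciliaKO against noncystic, 7 (males) and 3 (females) of the 100 other genes were called, beside 8.78% and 2.45% on the other chromosomes. The shares there were 14.6% and 3.52% within 5 Mb of *Pkd1*, and 12.2% and 5.76% beyond *H2-M2*. *B2m*, called in 4 of the 6 genotype comparisons, is on chromosome 2 and is not part of these counts. The pseudogene *H2-Ea-ps*, silent in the H2-b haplotype of C57BL/6, had 0 counts in 44 mice and 1 count in 1, but 129 strains have a related haplotype that this does not separate. The part of linked variants in the values of the H2- genes was not tested.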

How the data were processed

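TRAP RNASeq was measured in 45 mice, 1 library each, grouped by genotype and sex from the labels. The authors deposited raw counts per gene and, for each sex, TPM values of protein-coding genes that passed their filter (6 counts or more in 20% of mice or more). Trimming was by fastp 0.20.0, alignment to GRCm38.p6 by STAR 2.7.9 and counting by featureCounts 2.0.0; strand and multimapping options were not given in the sources used here.

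Each pair of genotypes within a sex was fitted to the counts of the genes in the TPM tables with edgeR 4.0.16 (TMM, quasi-likelihood test, Benjamini-Hochberg, threshold 0.05) in R 4.3.3, and sex differences as an interaction over 45 mice. SE is the log2 fold change divided by the square root of F. Alternatives were DESeq2 1.42.0, its size factors, 1 fit of 3 genotypes, no filter, a replicate block, voom weights and limma 3.58.1 on log2(TPM + 1) or log2(TPM + 0.1), and leaving out mice. The fitting script was tested on simulated data. Levels are TPM and fold changes come from counts. Replicates are separate mice, by the labels. Counting error is small for the members, each with at least 222 counts in every mouse; the reads carry no molecular identifiers. Of 149 pairs of libraries within groups, none were close enough to be 1 library deposited more than once.

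The members and lists were chosen with earlier results of these data known. Genes named are the members, *Pkd1*, *Kif3a*, H2- genes, the lists described with their counts, the 3 genes most like *Cd74*, *H2-K1* and *Psmb8*, and marker relations. Results of some listed genes and of 1 of the 5 markers are not reported here.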

Additional observations from a re-analysis of the deposited data

Results flagged for a closer look

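Of 60 tests for a mouse far from its group (10 members in 6 groups, by TPM and Dixon's criterion), 8 passed, where chance passes about 1 in 20. Of these, 7 were Pkd1KO male replicate 4, at 1072 TPM for *B2m* (next male 597), 161 for *H2-Aa* (26.4), 147 for *H2-Ab1* (46.3), 334 for *H2-Eb1* (55.6), 832 for *Cd74* (243), 11.9 for *Tap1* (6.04) and 30.5 for *Psmb8* (11.3). The other was *Tap1* at 6.10 TPM in the library labelled noncystic female replicate 5, whose next mouse had 4.45. That library also went against its label in *Kif3a*, and the *Tap1* comparisons it enters gave no call.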

How the results depend on the processing

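Counts of members called in Pkd1KO against noncystic males (1 of 10) became 2 with DESeq2, 5 with 1 fit of the 3 genotypes, and 0 with the replicate block, voom weights, limma on either TPM scale, without the libraries that stand apart, and without Pkd1KO males 3 and 4 (added after seeing the data); leaving out 1 mouse gave 0 to 3. Against Pkd1KO+ciliaKO males (2) they became 5 with DESeq2 and with 1 fit, 0 with either limma fit, and 1 with the replicate block, voom weights, and either set of libraries left out; without 1 mouse, 1 to 3. In Pkd1KO+ciliaKO against noncystic males (1) the count was 0 with 1 fit and with the replicate block, and 1 whichever mouse was left out. In females, Pkd1KO against noncystic (2) gave 1 without the 2 doubtful libraries and 0 to 2 without 1 mouse, Pkd1KO against Pkd1KO+ciliaKO (2) gave 4 with DESeq2, 3 with voom weights (*H2-D1* added) and 2 to 3 without 1 mouse, and under the replicate block 2, *B2m* and *H2-Ab1*, with *H2-K1* at an adjusted p of 0.0543, and Pkd1KO+ciliaKO against noncystic (0) gave 1 with voom weights and 0 whichever mouse was left out. The noncystic sex comparison (1) gave 2 with DESeq2 and its size factors, 0 with no filter, the block, and without libraries that stand apart, and 0 to 2 without 1 mouse. The 24 relations past the threshold became 25 in males, 18 in females and 25 without the 6 libraries. The cause was not tested. Of 1730 refitted member values, 1512 were of members not called in the main fit, of which 31 gained a call and 46 changed sign. The 61 that lost a call were all among the remaining, called values, so their share of these is far above 61 of 1730. None of the called values changed sign. Replicate numbers do not pair mice (13 of 41 same-numbered pairs had r over 0.1, 6 matched best with their own number), so a call lost under the block is not read as a weaker effect.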
